A study of Bos taurus with 2 samples.

Results

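The genes of the cytosolic translation initiation and elongation factors were examined in bovine embryos, in 1 pool injected with siRNA against CDKN1C and 1 sham-injected pool. They were taken by symbol, as every gene whose name begins with EIF or EEF and a digit, without the Argonaute genes once named EIF2C, the EIF2AK kinases and the Y-linked copies EIF1AY and EIF2S3Y. This gave 54 genes of 21209, each at 1 locus, and 49 of them averaged 1 FPKM or more over the pools. The embryos of both pools were produced by in vitro fertilization and punctured with a microinjection needle. Those of the injected pool received siRNA against CDKN1C, an imprinted cell-cycle inhibitor gene, and those of the sham pool received none. The study collected blastocysts in its injection experiments, but the age, number and sex of the embryos are not stated separately for the sequenced pools, and control embryos without injection were not analysed here. Each pool is a single library, so no difference below has a replicate check, a standard error or a p-value.

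Values are FPKM, fragment counts scaled to transcript length and to sequencing depth by the authors. Read counts, and so the depth, are unknown. RNA of each pool was amplified before sequencing, and how evenly different transcripts were amplified and covered is not known. Levels, shares and ratios of different genes are therefore comparisons of FPKM, not of transcript numbers. A difference is log2 of the injected over the sham value with 1 FPKM added to each, and a fold in the text is the ratio of the FPKM values. A gene was counted as different when it was at least 2-fold apart on the first scale, which understates the change of genes with low values. Over the 7984 genes that passed the same filter of 1 FPKM, the median log2 difference was -0.17 as deposited and 0.16 when both pools were scaled to the same total FPKM. Shares and ratios of genes within a pool do not depend on this scaling. In pooled embryos, fewer cells of a type and less RNA per cell cannot be told apart.

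CDKN1C was 14.6 FPKM in injected embryos against 49.5 FPKM in sham embryos, 3.40-fold lower, so the targeted gene went the way of the labels. This is a weak check, as 15.7% of all genes were at least 2-fold lower. All 9 trophectoderm and all 6 inner cell mass markers reached 1 FPKM in both pools, as did 3 of 6 hypoblast markers, with SOX17 at 0 in both. The sum of the trophectoderm markers was 7575 FPKM in injected embryos against 17559 FPKM in sham embryos, and that of the inner cell mass markers 127.0 FPKM in injected and 242 FPKM in sham embryos. KRT8 was 3.58-fold and POU5F1 3.02-fold lower, the lowest of their lists. KRT18 alone was 5389 FPKM in injected and 11245 FPKM in sham embryos, and so made up most of the trophectoderm sum. IFNT2 went the other way, 4.33-fold higher. TFAP2A, TFAP2C and ELF5 of the trophectoderm list and DPPA3 and LIN28B of the inner cell mass list were also higher. Of 8 cumulus and granulosa markers, 2 reached 1 FPKM in either pool, and the sum of all 8 was 8.47 FPKM in injected embryos against 22.1 FPKM in sham embryos. The sum of 7 fibroblast markers was 7.53 FPKM in injected embryos against 1.39 FPKM in sham embryos, with COL1A1 at 0 in both. Their largest value was that of LUM in the injected pool, at 4.77 FPKM, and that of COL1A2 in the sham pool, at 1.04 FPKM. The part of these cell types in the differences below was not tested.

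Initiation factors bring the initiator tRNA, the capped mRNA and the ribosomal subunits together at the start codon. Factor eIF2 carries the initiator tRNA in its GTP form and is recharged by eIF2B, eIF3 holds the small subunit open for mRNA, and eIF4F binds the cap and unwinds the leader. Elongation factors then deliver each aminoacyl-tRNA and move the ribosome along. In the early mammalian embryo, translation first depends on stored maternal mRNA and later on factors made from the embryonic genome.

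Translation factor genes went both ways between the pools. Of the 49 genes, 18 had higher and 31 had lower values after injection, where 58.3% of all genes were lower, with a median log2 difference of -0.25, against -0.17 over all genes. With equal totals 25 were higher and 24 lower, with a median of 0.14 against 0.16 over all genes. EIF2S3, EIF4E, EIF4E3 and EIF4ENIF1 were at least 2-fold higher, 4 of 49 where the share over all genes was 4.92%. EIF3I, EIF4EBP1, EIF2B4, EIF6, EIF3K and EEF1D were at least 2-fold lower, 6 of 49 where the share over all genes was 15.7%. At 4-fold, 1 gene was higher and 0 were lower, against shares of 0.413% and 1.05% over all genes. EIF2S3, EIF3I and EIF4EBP1 were at least 2-fold apart in the same direction under all 9 alternative settings, and the other 7 were not. These 9 hold the fit on local gene density, added after the data were seen, and leave out the 4-fold cut. The changes of filter and the choice of locus could not alter the values of these genes, so they are no check of them. The split of 4 higher and 6 lower was 11 and 2 with equal totals, where the shares over all genes were 12.7% and 7.83%. It was 5 and 5 with the median of all genes set to 0, where the shares were 7.72% and 11.05%. After a loess fit on locus length it was 6 and 2, where the shares were 7.52% and 8.64%. Together the 49 genes held 0.814% of all FPKM in injected embryos against 0.859% in the sham pool.

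**Figure D1:**
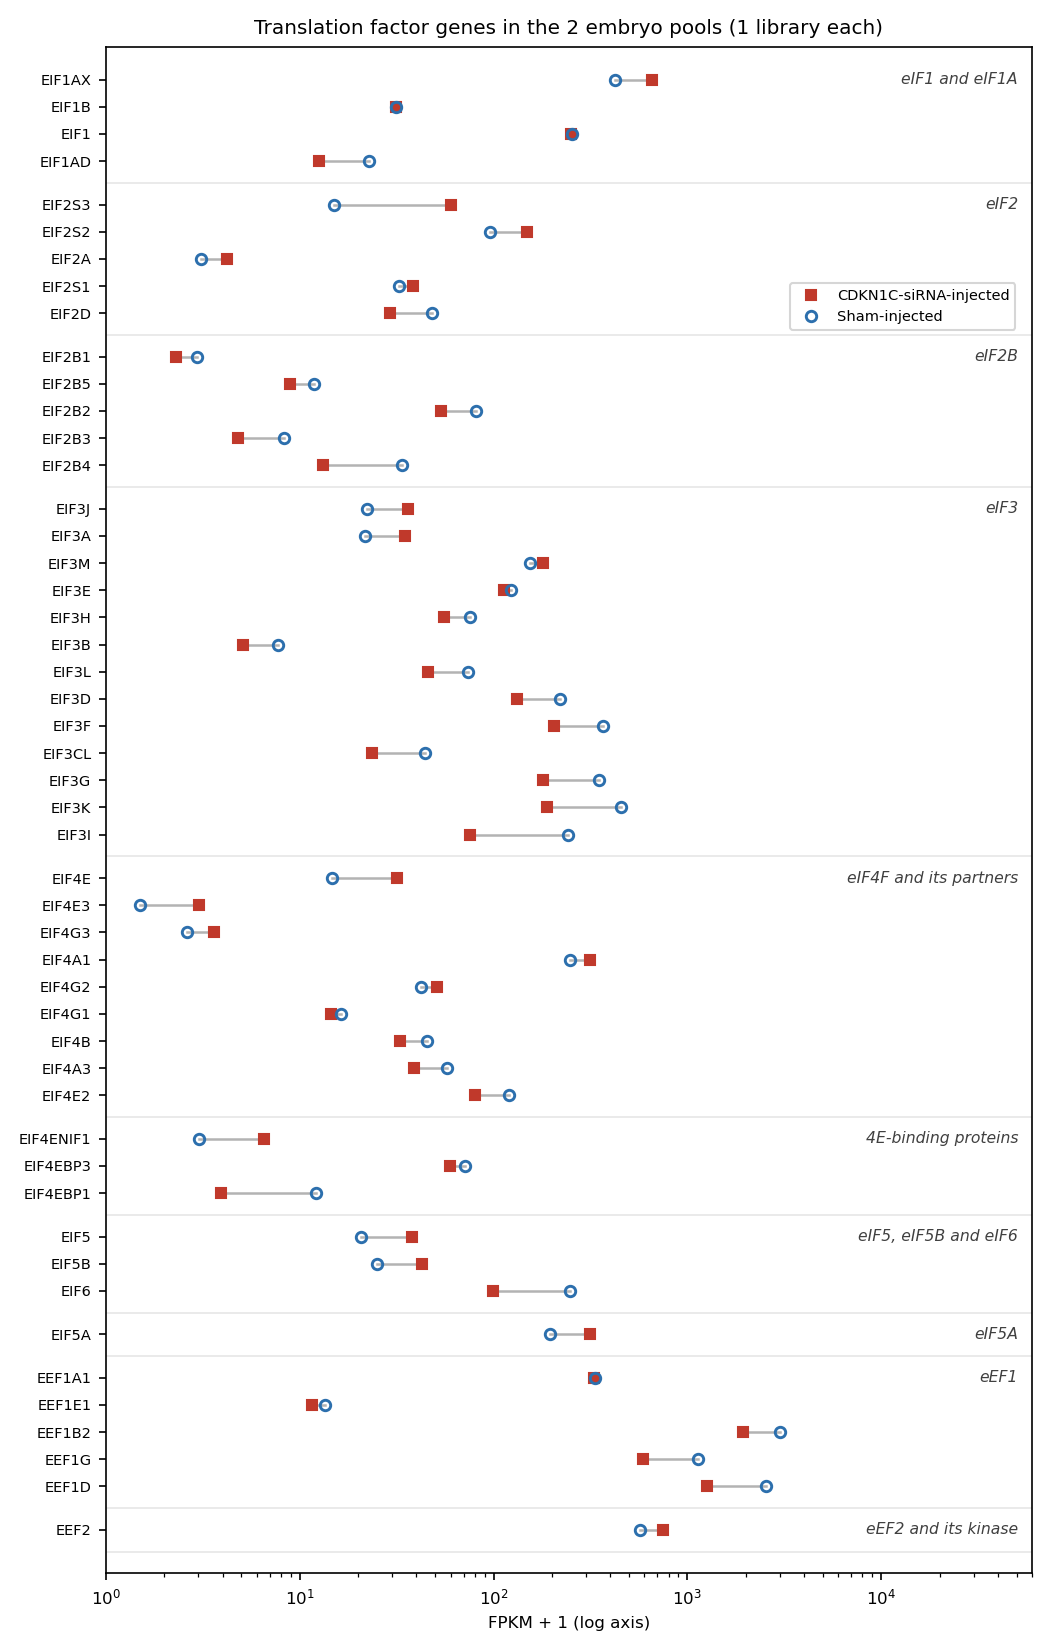
FPKM + 1 (horizontal, log axis) of the 49 translation factor genes that passed the filter, by factor complex, in the CDKN1C-siRNA-injected pool (red squares) and the Sham-injected pool (blue circles), 1 library each. EIF2S3, EIF4E and EIF4ENIF1 lie to the right in the injected pool, EIF3I, EIF6 and EIF4EBP1 to the left, and EIF1, EIF1B and EEF1A1 nearly overlap.

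The 3 subunits of eIF2 were all higher in the injected pool, and most of all the gamma subunit. Over all genes, 3329 of 7984 were higher. EIF2S3, which encodes the gamma subunit that binds GTP and the initiator tRNA, was 59.3 FPKM in injected embryos against 14.0 FPKM in sham embryos, 4.23-fold higher. It lies on chromosome X of bosTau7, the build of the files, from 73208230 to 73226067. Of the 7984 genes, 33 including EIF2S3 had a log2 difference as high as its 2.01. EIF2S2, the beta subunit, was 147 FPKM in injected embryos against 95.2 FPKM in sham embryos. EIF2S1, the alpha subunit whose phosphorylation under stress slows initiation, was 37.5 FPKM in injected embryos against 31.5 FPKM in sham embryos. The 3 proteins form a complex with 1 copy of each, but their FPKM values were not alike in either pool. EIF2S3 made up 24.3% of their summed FPKM in injected embryos against 9.97% in the sham pool, and EIF2S2 made up 60.3% in the injected pool and 67.7% in the sham pool. The ratio of EIF2S3 to EIF2S1 was 1.58 in the injected pool and 0.445 in the sham pool, so the order of these 2 subunits turned round.

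Of the factors that can place the initiator tRNA without eIF2, EIF2A was 3.19 FPKM in injected embryos against 2.08 FPKM in sham embryos. EIF2D was 28.1 FPKM in injected embryos against 47.4 FPKM in sham embryos, the only member of this group that was lower after injection.

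The other X-linked member, EIF1AX, was higher as well. Its product eIF1A keeps the small subunit scanning for the start codon, and it was 654 FPKM in injected embryos against 421 FPKM in sham embryos. Both X-linked genes have a Y-linked partner that the symbol rule leaves out, and reads may be shared between the near-identical copies. EIF1AY was 0.910 FPKM in injected embryos against 10.0 FPKM in sham embryos, and EIF2S3Y was 6.95 FPKM in injected and 6.40 FPKM in sham embryos. XIST, the RNA of X inactivation, was 2.02 FPKM in injected embryos against 0.398 FPKM in sham embryos. Over 183 X-linked genes the median log2 difference was 0.17, against -0.17 over all genes, with 111 higher and 72 lower. At 2-fold, 17 were higher and 17 lower, where the shares over all genes were 4.92% and 15.7%. Of these 183 genes, 2 including EIF2S3 were as high as EIF2S3 and 41 including EIF1AX as high as EIF1AX. In human cells both genes are known to escape X inactivation. Of 7 Y-linked genes that passed the filter, 4 were at least 2-fold lower, where the share over all genes was 15.7%, and the other 3 were higher. The sum of all 7 was 51.1 FPKM in injected embryos against 204 FPKM in sham embryos. The part of embryo sex in these differences was not tested.

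EIF1, a second scanning factor, was 250.1 FPKM in injected embryos against 253 FPKM in sham embryos, and its paralogue EIF1B was 30.4 FPKM in injected and 30.5 FPKM in sham embryos, so these levels were nearly equal as deposited. Their log2 differences of -0.015 and -0.0082 both turned to 0.38 with equal totals. EIF1 made up 89.2% of the pair in each pool. EIF1AD, which is related to eIF1A in sequence, was 11.5 FPKM in injected embryos against 21.8 FPKM in sham embryos.

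All 5 subunits of eIF2B, the exchange factor that recharges eIF2, were lower in the injected pool, as deposited, with equal totals and with the median of all genes set to 0. As deposited, 58.3% of all genes were lower. EIF2B4, the delta subunit, was 12.2 FPKM in injected embryos against 32.7 FPKM in sham embryos, 2.69-fold lower, on chromosome 11 from 74331732 to 74336244. EIF2B3, the gamma subunit, was 3.83 FPKM in injected embryos against 7.35 FPKM in sham embryos, and EIF2B2, the beta subunit, 52.4 FPKM in injected and 80.1 FPKM in sham embryos. The catalytic epsilon subunit EIF2B5 was 7.96 FPKM in injected embryos against 10.8 FPKM in sham embryos, and the alpha subunit EIF2B1 1.30 FPKM in injected and 1.95 FPKM in sham embryos. The median log2 difference was -0.60, and it was -0.21 with equal totals and -0.13 after a loess fit on locus length, where EIF2B1 turned to 0.0043. After a loess fit on local gene density EIF2B5 turned to 0.028. The complex holds its subunits in equal number, but EIF2B2 alone made up 67.5% of their summed FPKM in injected embryos against 60.3% in the sham pool.

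**Figure D2:**
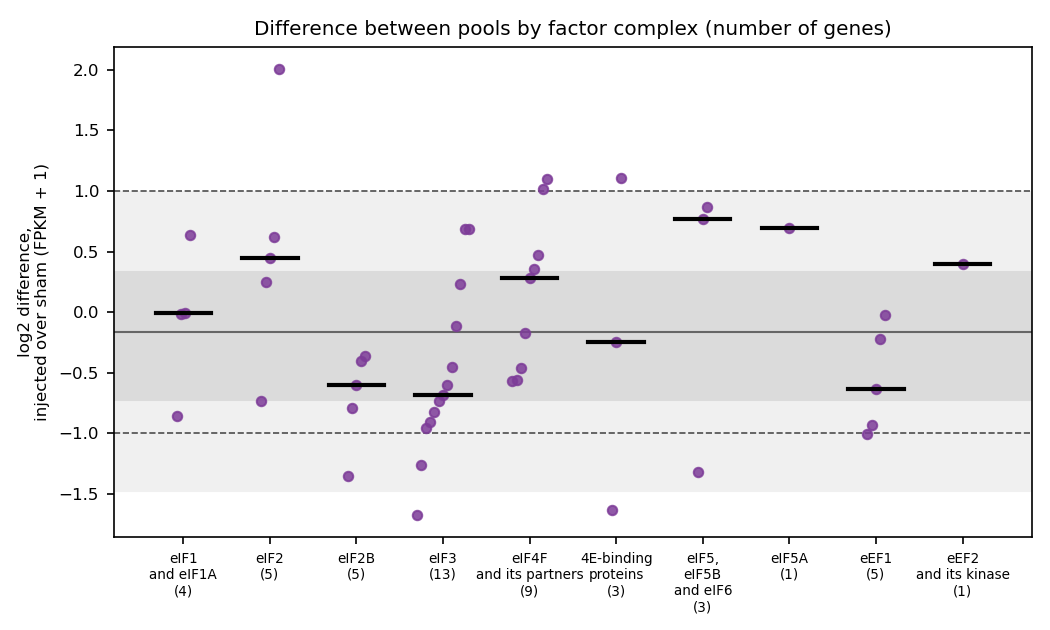
Log2 ratio of injected to sham FPKM (vertical, with 1 FPKM added to each) for each translation factor gene, grouped by complex with the number of genes in brackets. Points are genes, black bars the median of each group, the dark and light bands the central ranges of all 7984 genes between percentiles 25 and 75 and between percentiles 5 and 95, the grey line their median of -0.17, and dashed lines mark 2-fold. All points of eIF2B lie below 0, and EIF2S3 stands alone at 2.01.

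Factor eIF3, the largest initiation complex, was lower in 10 of its 13 genes in the injected pool, where 58.3% of all genes were lower. With equal totals 9 were lower. The median log2 difference was -0.69, or -0.30 with equal totals, against -0.17 and 0.16 over all genes. The lowest was EIF3I, a WD-repeat subunit, at 74.5 FPKM in injected embryos against 240.1 FPKM in sham embryos, 3.22-fold lower, on chromosome 2 from 126851630 to 126866544. EIF3K, a small subunit on chromosome 18, was 188 FPKM in injected embryos against 452 FPKM in sham embryos, 2.41-fold lower. EIF3G, which forms a module with EIF3I and EIF3B, was 178 FPKM in injected embryos against 347 FPKM in sham embryos, and EIF3B was 4.07 FPKM in injected and 6.70 FPKM in sham embryos. All 3 genes of that module, a grouping chosen after the values were seen, were lower, and their summed FPKM in injected embryos was 43.2% of that in the sham pool.

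The 8 eIF3 genes with PCI or MPN domains, which build its core and were also grouped after the values were seen, were mixed. EIF3K, given above, belongs to them and was the lowest, at a log2 difference of -1.26. EIF3A, the scaffold subunit, was higher in the injected pool, at 33.9 FPKM against 20.7 FPKM in sham embryos, and EIF3M was 179 FPKM in injected and 152 FPKM in sham embryos. EIF3F was lower, at 205 FPKM in injected embryos against 364 FPKM in sham embryos, as were EIF3L, at 44.8 FPKM in injected and 72.6 FPKM in sham embryos, and EIF3CL, at 22.6 FPKM in injected and 43.3 FPKM in sham embryos. EIF3CL is a copy of the core gene EIF3C, with which reads may be shared and which was not analysed here. EIF3H was 54.5 FPKM in injected embryos against 74.9 FPKM in sham embryos. EIF3E was 112 FPKM in injected embryos against 121 FPKM in sham embryos, a log2 difference of -0.12 that turned to 0.28 with equal totals and 0.051 with the median of all genes set to 0. Outside the core, the loosely bound subunit EIF3J was higher, at 35.0 FPKM in injected embryos against 21.4 FPKM in sham embryos, and the cap-binding subunit EIF3D was lower, at 131 FPKM in injected and 218 FPKM in sham embryos. The ratio of EIF3A to EIF3I was 0.455 in the injected pool and 0.0862 in the sham pool, as these subunits of the same complex went opposite ways.

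The differences among eIF3 genes went with the length of the locus. EIF3A, EIF3J, EIF3M, EIF3E and EIF3H, the 5 with a locus of at least 30000 bp, had log2 differences from -0.45 to 0.69, and 3 of them were higher in the injected pool. The other 8 were all lower, from -1.68 to -0.60. Spearman's rho between the difference and locus length was 0.82 over these 13 genes, and -0.83 with the number of other loci in the surrounding 1 Mb. These genes share both libraries, and length and gene density go together. Over all 7984 genes the same rho was 0.29 for length and -0.43 for gene density, and over the 49 translation factor genes 0.25 and -0.45. Of 16 translation factor genes with a locus under 10000 bp, 12 were lower in the injected pool, with a median of -0.33. Of 21 with a locus of 10000 to 30000 bp, 15 were lower, with a median of -0.56, and of 12 with a longer locus, 8 were higher, with a median of 0.46. Over all genes the medians of these classes were -0.49, -0.20 and 0.092, so the members of middle length did not lie between the others as all genes did. After a loess fit on locus length the median of eIF3 was -0.43, with EIF3I at -1.40 and EIF3K at -0.95. After the fit on local gene density the median was -0.36, with EIF3I at -1.15 and EIF3K at -0.67.

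**Figure D3:**
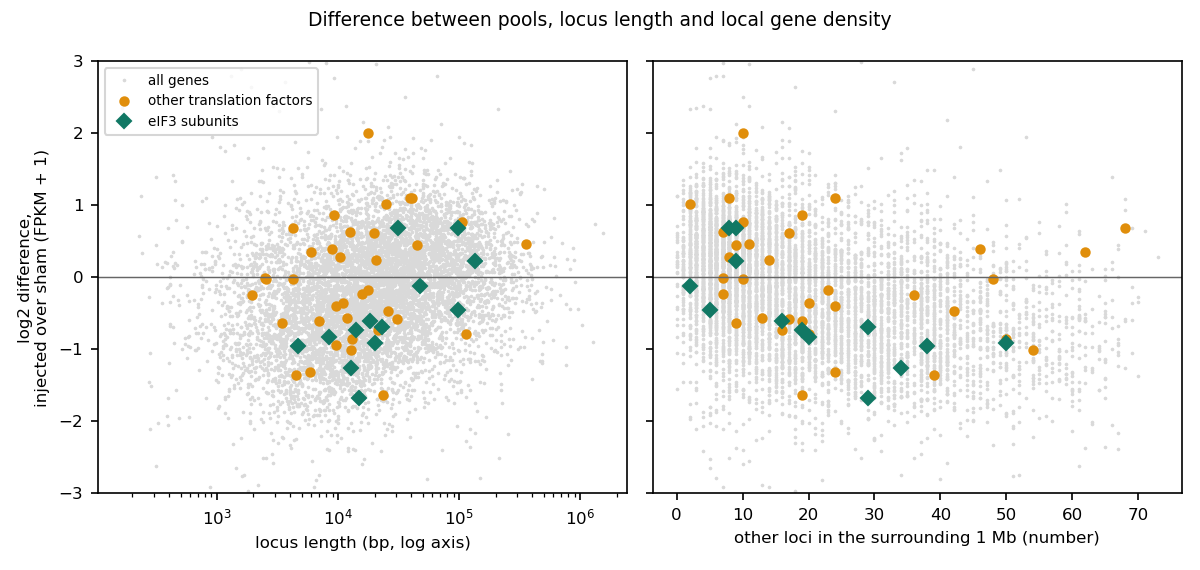
Log2 ratio of injected to sham FPKM (vertical, with 1 FPKM added to each) against locus length in bp (left, log axis) and against the number of other loci in the surrounding 1 Mb (right). Green diamonds are the 13 eIF3 genes, orange points the other translation factor genes, grey points all 7984 genes, of which 14 lie beyond 3 on the vertical axis and are not drawn. The eIF3 genes with long loci in gene-poor surroundings lie highest.

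Among the cap-binding proteins, the canonical gene was higher and its main paralogue lower. EIF4E, whose product binds the cap of the mRNA and limits initiation, was 30.7 FPKM in injected embryos against 13.8 FPKM in sham embryos, 2.23-fold higher, on chromosome 6 from 27385860 to 27426550. EIF4E2, a relative that represses translation of selected mRNAs, was 79.5 FPKM in injected embryos against 119 FPKM in sham embryos. EIF4E3 was 2.03 FPKM in injected embryos against 0.498 FPKM in sham embryos, and its log2 difference of 1.02 was 0.35 when 5 FPKM was added. EIF4E1B, an oocyte paralogue, did not pass the filter, with 0 FPKM in injected embryos against 0.117 FPKM in sham embryos. Of the family's summed FPKM, EIF4E made up 27.4% in the injected pool and 10.3% in the sham pool. EIF4E2 had the largest share in both, with 70.8% in the injected pool and 89.2% in the sham pool.

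The genes of proteins that bind eIF4E went both ways. EIF4EBP1, which holds eIF4E away from the scaffold until mTOR phosphorylates it, was 2.94 FPKM in injected embryos against 11.2 FPKM in sham embryos, 3.82-fold lower. EIF4EBP3 was 58.9 FPKM in injected embryos against 70.2 FPKM in sham embryos, a log2 difference of -0.25 that turned to 0.14 with equal totals, 0.25 after the loess fit on locus length and 0.37 after that on gene density. It made up 95.2% of the summed FPKM of the 3 inhibitors in the injected pool and 85.9% in the sham pool. EIF4EBP2 was under the filter, at 0.0333 FPKM in injected embryos against 0.352 FPKM in sham embryos. The summed FPKM of the 3 inhibitors was 2.02 times that of EIF4E in the injected pool and 5.94 times in the sham pool. EIF4ENIF1, or 4E-T, which carries eIF4E to the nucleus and to P-bodies, was higher, at 5.51 FPKM in injected embryos against 2.02 FPKM in sham embryos.

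**Figure D4:**
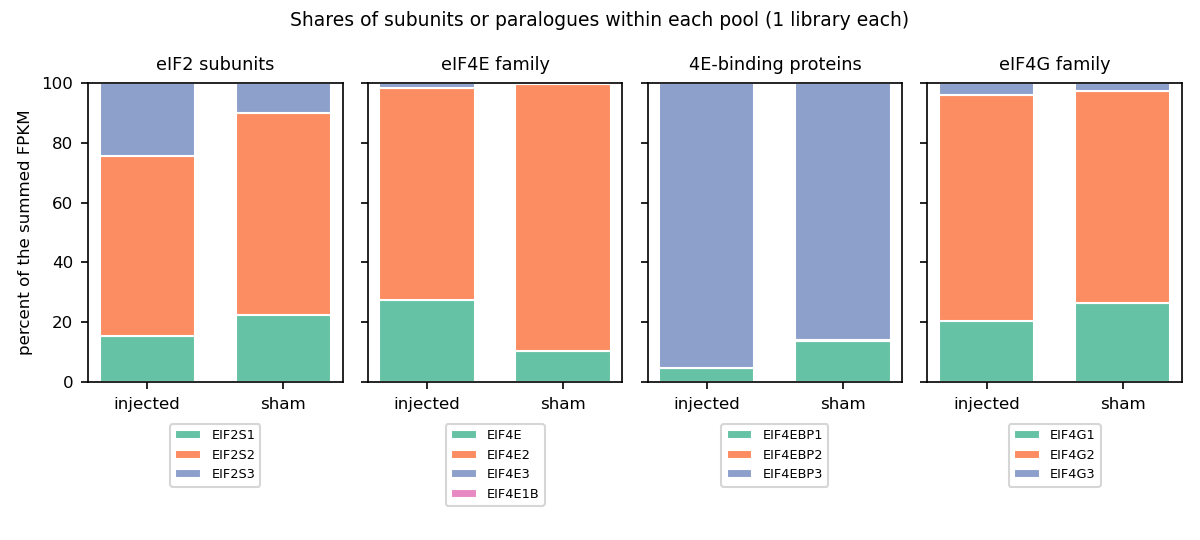
Percent of the summed FPKM (vertical) of each subunit or paralogue within the injected pool (left bar) and the sham pool (right bar), 1 library each, for the eIF2 subunits, the eIF4E family, the 4E-binding proteins and the eIF4G family. EIF2S3 and EIF4E take larger shares in the injected pool, 24.3% and 27.4%, than in the sham pool, 9.97% and 10.3%.

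The helicase and scaffold genes of eIF4F were within 2-fold as deposited. EIF4A1, the helicase that unwinds mRNA leaders, was 314 FPKM in injected embryos against 246 FPKM in sham embryos, a log2 difference of 0.35 that was 1.16 after the loess fit on local gene density. Its paralogue EIF4A2 was not analysed here. EIF4A3, its relative in the exon junction complex, was 37.9 FPKM in injected embryos against 56.4 FPKM in sham embryos. EIF4B, a cofactor of the helicase, was 31.9 FPKM in injected embryos against 44.3 FPKM in sham embryos, and its log2 difference of -0.46 turned to 0.22 after a loess fit on local gene density. Of the scaffolds, EIF4G2, which lacks the site for eIF4E, had the highest FPKM, at 50.2 FPKM in injected embryos against 41.0 FPKM in sham embryos. EIF4G1, the main scaffold of cap-dependent initiation, was 13.6 FPKM in injected embryos against 15.4 FPKM in sham embryos, a log2 difference of -0.17 that turned to 0.20 with equal totals, 0.0499 after the loess fit on locus length and 0.23 after that on gene density. EIF4G3 was 2.63 FPKM in injected and 1.62 FPKM in sham embryos. EIF4G2 made up 75.6% of the scaffold FPKM in injected embryos against 70.7% in the sham pool.

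The late factors of initiation split. EIF5, which triggers GTP hydrolysis by eIF2, was 36.8 FPKM in injected embryos against 19.7 FPKM in sham embryos, and EIF5B, the GTPase that joins the subunits, was 41.7 FPKM in injected and 24.0 FPKM in sham embryos. EIF6, which keeps the large subunit from joining and acts in its assembly, was lower, at 98.7 FPKM in injected embryos against 248 FPKM in sham embryos. This was 2.51-fold, on chromosome 13 from 65116877 to 65122763. The ratio of EIF5 to EIF6 was 0.373 in the injected pool and 0.0795 in the sham pool.

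EIF5A, which helps the ribosome through difficult peptide bonds, was higher in the injected pool, while the enzymes that activate its product were lower. EIF5A was 314 FPKM in injected embryos against 194 FPKM in sham embryos, and its paralogue EIF5A2, at 1.05 FPKM in injected and 0.816 FPKM in sham embryos, had a mean just under the filter. The protein works only after one lysine is turned into hypusine by the enzymes of DHPS and DOHH. DHPS was 10.2 FPKM in injected embryos against 34.3 FPKM in sham embryos, 3.37-fold lower, and DOHH was 28.9 FPKM in injected and 69.7 FPKM in sham embryos, 2.41-fold lower. The direction of all 3 genes held with equal totals, with the median of all genes set to 0 and after both loess fits. The other alternatives, of pseudocount, filter and locus, could not turn a direction.

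EEF1B2, EEF1D, EEF1G and EEF2 had the highest mean FPKM of the members, followed by EIF1AX, and the subunits of eEF1 differed unequally. EEF1B2, a subunit of the exchange factor that recharges eEF1A, was 1931 FPKM in injected embryos against 2994 FPKM in sham embryos. EEF1D, a second exchange subunit, was 1269 FPKM in injected embryos against 2553 FPKM in sham embryos. EEF1G, their anchor, was 593 FPKM in injected and 1133 FPKM in sham embryos. The log2 differences of EEF1B2, EEF1D and EEF1G were -0.63, -1.01 and -0.93. With equal totals they were -0.24, -0.61 and -0.54. After the loess fit on locus length they were -0.11, -0.69 and -0.54, and after that on gene density -0.73, -0.24 and -0.29. EEF1A1, which delivers aminoacyl-tRNA, was 327 FPKM in injected embryos against 333 FPKM in sham embryos, 98.3% of its sham level, and its log2 difference of -0.025 turned to 0.37 with equal totals, 0.14 with the median of all genes set to 0 and 0.51 after the loess fit on locus length. The summed FPKM of the 3 exchange subunits was 11.6 times that of EEF1A1 in the injected pool and 20.1 times in the sham pool. EEF1A1 has many processed copies in mammalian genomes, and how reads with several matches were assigned is not given in the sources used here. EEF2, the translocase, was higher, at 748 FPKM in injected embryos against 568 FPKM in sham embryos. EEF1E1, a scaffold of the tRNA synthetase complex rather than an elongation factor, was 10.5 FPKM in injected and 12.5 FPKM in sham embryos, a log2 difference of -0.22 that turned to 0.14 with equal totals and 0.036 after the loess fit on locus length. EEF1A2, the muscle and neuron form, was 0 FPKM in injected embryos against 0.119 FPKM in sham embryos, and EEF2K, the kinase that inhibits eEF2, was 0.670 FPKM in injected and 0.565 FPKM in sham embryos, so both were under the filter.

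In human cells EEF1A1, EEF1B2, EEF1D, EEF1G, EEF2, EIF3E, EIF3F, EIF3H and EIF4B belong to the TOP mRNAs, which begin with a run of pyrimidines, as do ribosomal protein mRNAs, and whose translation follows mTOR. Of these 9 genes, 8 were lower and 1, EEF2, was higher in the injected pool, where 58.3% of all genes were lower. Their median log2 difference was -0.46, or -0.076 with equal totals, where 6 were lower and 3 higher. Over all genes the medians were -0.17 as deposited and 0.16 with equal totals. The 40 other members had a median of -0.20, which turned to 0.17 with equal totals, 0.097 after the loess fit on locus length and 0.0805 after that on gene density. Of 79 cytosolic ribosomal protein genes, 70 were lower, with a median of -0.50, or -0.10 with equal totals, where 45 were lower and 34 higher. They held 47.5% of all FPKM in injected embryos against 48.5% in the sham pool. The scaling to equal totals therefore rests in large part on these genes, and their values under it are no separate check. The difference between these lists was not tested, since each pool is 1 library.

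Of 17 listed kinases, phosphatases and stress genes, 12 passed the filter, 3 higher and 9 lower, where 58.3% of all genes were lower. Their median of -0.17 turned to 0.18 with equal totals and 0.20 after the loess fit on gene density. Only 1 was at least 2-fold lower, where the share over all genes was 15.7%. This was TSC2, an inhibitor of mTOR signalling, at 0.485 FPKM in injected embryos against 2.34 FPKM in sham embryos, and its log2 difference of -1.17 was -0.42 with 5 FPKM added and -0.41 after the loess fit on gene density. Its partner TSC1 was at 16.2 FPKM in injected and 29.7 FPKM in sham embryos. ATF4, whose mRNA is translated when eIF2 is phosphorylated, was 144 FPKM in injected embryos against 207 FPKM in sham embryos. RPS6KB1, the S6 kinase, was 8.69 FPKM in injected embryos against 5.87 FPKM in sham embryos. MKNK1, which phosphorylates eIF4E, was 11.1 FPKM in injected and 8.47 FPKM in sham embryos, and PPP1R15B, a phosphatase subunit that acts on eIF2 alpha, was 2.90 FPKM in injected and 2.26 FPKM in sham embryos. Of the eIF2 kinases, named after their values were seen, EIF2AK4 was 3.08 FPKM in injected and 3.53 FPKM in sham embryos and EIF2AK1 0.869 FPKM in injected and 1.14 FPKM in sham embryos. Their log2 differences of -0.15 and -0.19 turned to 0.16 and 0.0050 with equal totals. EIF2AK2 and EIF2AK3 were under the filter.

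Of 15 poly(A)-binding proteins and cofactors in the files, 13 passed the filter, 8 of them higher and 5 lower after injection, 2 of each by 2-fold or more, where the shares over all genes were 4.92% and 15.7%. With equal totals 10 were higher and 3 lower, 3 and 1 of them by 2-fold or more, where the shares over all genes were 12.7% and 7.83%. PDCD4, an inhibitor of the helicase eIF4A, was 8.43 FPKM in injected embryos against 2.52 FPKM in sham embryos. Its log2 difference of 1.42 was 0.84 with 5 FPKM added and stayed over 1 under the other alternatives. PAIP1, which joins the poly(A)-binding protein to eIF4A, was 54.5 FPKM in injected embryos against 23.3 FPKM in sham embryos, and it stayed over 2-fold higher under the 9 alternatives. MCTS1, an X-linked partner of DENR in reinitiation, was 10.4 FPKM in injected and 6.18 FPKM in sham embryos. The 2 lower genes were DHPS and DOHH, the enzymes of eIF5A, and the log2 difference of DOHH, -1.24, was -0.86 with equal totals, -0.80 after the loess fit on locus length and -0.63 after that on gene density. PABPC1 was not analysed here. PABPC1L, the poly(A)-binding protein of oocytes, was 1.14 FPKM in injected embryos against 2.47 FPKM in sham embryos.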

How the data were processed

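The authors amplified and sequenced RNA of each pool, aligned reads to bosTau7 using TopHat, and deposited FPKM values per locus from Cufflinks 2.0.2, normalized to the upper quartile and corrected for sequence bias. The gene annotation and the treatment of reads with several matches are not given in the sources used here. Cuffdiff, named in the study's methods, was not rerun. Of 22220 loci, 615 without a symbol were left out, and values of loci sharing a symbol were added. The members and lists were chosen with earlier results of these data known, and complexes were set from textbook knowledge. Any member averaging 1 FPKM or more may be named, given in full if at least 2-fold different, among the 3 highest or 3 lowest of its complex, among the 5 most abundant, or X-linked, as may the 3 highest and 3 lowest of each related list, and CDKN1C and XIST as checks. With 1 library in each group no test was run. The counting rule was run on simulated data with planted changes, which cannot show how often single libraries differ 2-fold by chance. Alternatives were pseudocounts of 0.1 and 5 FPKM, no filter, a filter at 5 FPKM, centring the median of all genes on 0, equal totals, the single locus of highest mean, a loess correction for locus length (span 0.3), and 4-fold. A loess correction for local gene density, the number of other loci in the surrounding 1 Mb, was added after the data were seen. A RefSeq gene table of another assembly held all 54 symbols. Its coordinates were not used, and no sequences are shown. Software was Python 3.11.15 (pandas 2.3.3, NumPy 2.4.6), with statsmodels 0.14.6 for loess and matplotlib 3.10.9 for plots.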

Additional observations from a re-analysis of the deposited data

How the results depend on the processing

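The count of translation factor genes at least 2-fold higher, 4 as reported, was 1 with 5 FPKM added, 2 where only means of 5 FPKM or more were kept, 11 with equal totals and 1 at 4-fold. The count at least 2-fold lower, 6 as reported, was 2 with equal totals, 2 after a loess fit on locus length, 2 after a loess fit on local gene density and 0 at 4-fold. Over all genes, the share at least 2-fold higher was 12.7% and the share at least 2-fold lower 7.83% with equal totals. The share higher was 1.49% with 5 FPKM added and 4.96% with the filter at 5 FPKM. The share lower was 8.64% after the fit on locus length and 7.35% after that on gene density. The median log2 difference of the 4E-binding proteins, -0.25 as reported, was -0.94 with the filter at 5 FPKM and 0.37 after the fit on gene density. After that fit the single genes EIF5A and EEF2 were at 1.53 and 1.11. Other medians of complexes moved by less than 1.5-fold under the alternatives run, but that of eIF1 and eIF1A, -0.012, turned to 0.38 with equal totals, and that of eIF4F and its partners, 0.28, turned to -0.17 with the filter at 5 FPKM. Of the 49 genes, 39 kept their sign in all settings, 18 higher and 21 lower. The pseudocounts, the filters and the choice of locus cannot change a sign, so only the scalings and loess fits check it. Taking the locus with the highest mean changed no member, since each has 1 locus. No paired analysis was possible because each group has a single library without a replicate number. Depth is unknown, so no floor or interval could be given for low values.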

Other observations

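The factors of mitochondrial translation, which serves the mitochondrial genome, also went both ways. TUFM, the mitochondrial counterpart of eEF1A, was 45.5 FPKM in injected embryos against 164 FPKM in sham embryos, 3.59-fold lower, and it was over 2-fold lower under the 9 alternatives. MRRF, the ribosome recycling factor, was 9.98 FPKM in injected embryos against 15.4 FPKM in sham embryos. TSFM, which recharges TUFM, was 42.4 FPKM in injected embryos against 55.6 FPKM in sham embryos, a log2 difference of -0.38 that turned to 0.0075 with equal totals, 0.058 after the loess fit on locus length and 0.14 after that on gene density. MTRF1L and MTRF1, of the release factor family, were 22.0 FPKM in injected embryos against 10.5 FPKM in sham embryos and 4.76 FPKM in injected and 2.10 FPKM in sham embryos. MTFMT, which formylates the initiator tRNA, was 4.48 FPKM in injected and 2.996 FPKM in sham embryos. Of 9 genes that passed the filter, 6 were higher and 3 lower, 1 of them at least 2-fold, where the share over all genes was 15.7%. Their median log2 difference of 0.34 turned to -0.095 with a mean of at least 5 FPKM.

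Cytosolic release and rescue factors were within 2-fold after adding 1 FPKM. ETF1, which reads stop codons, was 16.6 FPKM in injected embryos against 12.5 FPKM in sham embryos, and its partner GSPT1 was 14.8 FPKM in injected and 16.9 FPKM in sham embryos, a log2 difference of -0.18 that turned to 0.20 with equal totals. GSPT2, its X-linked copy, was 1.41 FPKM in injected and 0.830 FPKM in sham embryos. The rescue pair of stalled ribosomes went opposite ways. HBS1L was 8.49 FPKM in injected embryos against 4.22 FPKM in sham embryos, and PELO was 11.5 FPKM in injected embryos against 17.4 FPKM in sham embryos.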
